A study of Mus musculus with 2 samples.

Results

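The MAP kinase feedback regulators are 10 genes whose products restrain or follow signalling through the kinase ERK: the phosphatase genes Dusp1, Dusp4, Dusp5 and Dusp6, the Sprouty genes Spry1, Spry2 and Spry4, the Sprouty-related genes Spred1 and Spred2, and the transcription factor gene Etv5. They were picked by gene symbol out of 55536 annotated genes, and all 10 passed a minimum of 50 estimated counts on average, as did 14122 genes in all. The family was chosen from earlier results on the same libraries, in which several of its members were lower in replicate 2 than in replicate 1. Its differences between the animals are therefore given as a description and carry no test.

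The study sequenced ribosome-reduced total RNA of the left cerebral cortex from 2 adult female mice of the hybrid strain B6CASTF1/J (C57BL/6J crossed with CAST/EiJ), aged 8 to 10 months. Replicate 1 is animal 1 and replicate 2 is animal 5. Both libraries belong to 1 untreated group, each was made from 300 ng of RNA with added ERCC spike-ins (synthetic RNAs), and the labels give both animals the same donor entry. No label names a treatment, a manipulated allele or a time of sampling, so the values show levels in the cortex and how far 2 animals of 1 kind lay apart, with 1 library per animal and no p-value.

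Growth factors and neurotrophins act on receptor tyrosine kinases, which load Ras with GTP and start a relay from Raf through MEK to ERK. Active ERK also switches on genes that damp the relay. DUSP phosphatases strip phosphate from ERK and its relatives, Sprouty proteins act between the receptor and Raf, and Spred proteins bring the Ras inhibitor neurofibromin to the membrane. In cortex, synaptic activity, BDNF and FGF are well known to drive the ERK relay, and several of its feedback genes are switched on soon after ERK is activated.

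Feedback regulators were lower in replicate 2 across most of the family. Dusp4, Dusp1, Spry4 and Dusp6 were more than 2-fold lower, and Dusp5, Spred1, Spry2 and Etv5 more than 1.5-fold lower. Spred2 was 1.47-fold lower and Spry1 differed by less than its counting error. The summed level of the family was 339.7 TPM in replicate 1 and 204 TPM in replicate 2, where TPM is the length-scaled share of all transcripts. A log2 difference below is always replicate 2 minus replicate 1 in counts scaled by library, with a counting SE that covers read sampling only.

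Set beside all genes, 8 of 10 members were lower by more than 1.5-fold, against 2.34% of the 14122 genes. More than 2-fold lower were 4 of 10 members, against 0.63% of genes. The authors' model gave TPM intervals that did not overlap between the animals for 9 of 10 members, all lower in replicate 2, against 6.52% of genes lower with intervals apart. Every member lay below 0, as did 54.4% of genes. The median log2 difference was −0.77 over the members and −0.02 over all genes, whose central 95% ran from −0.57 to 0.69. Because the family was chosen for this difference, these shares are a description only.

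**Figure D1:**
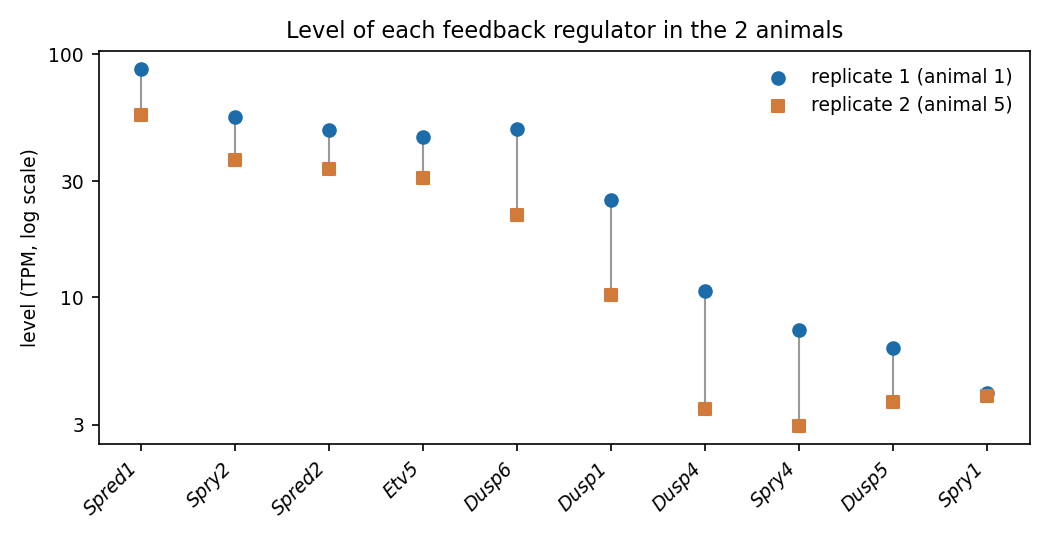
Level of each of the 10 genes in TPM (log scale) in replicate 1 (circles) and replicate 2 (squares), ordered by the mean of both animals, with a line joining the values of a gene. Spred1 is highest in both animals, at 87.3 and 56.4 TPM, and the animals nearly coincide for Spry1 alone, at 4.05 and 3.92 TPM.

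Levels spanned about 1 order of magnitude. Spred1 stood highest at 71.9 ± 21.8 TPM (SD, n = 2), in the 88.4th percentile of the genes that passed the count minimum, and Spry1 lowest at 3.98 ± 0.0919 TPM, in the 17.5th. By mean level, Spred1 was followed by Spry2, Spred2, Etv5, Dusp6, Dusp1, Dusp4, Spry4, Dusp5 and Spry1. The lower Spred1 value lay just above the higher Spry2 value, and all other neighbours in that order overlapped between the animals. Dusp6 ranked 3 of 10 in replicate 1 and 5 in replicate 2, and Spry1 ranked 10 and 7 while its own level hardly differed. In the authors' second table Spred2 at 48.8 and 36.2 TPM and Etv5 at 46.7 and 39.3 TPM stood above Spry2 at 46.5 and 30.9 TPM, so the order of these 3 genes depends on the table.

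The 4 DUSP phosphatases divide by where their products work. Dusp1 encodes a nuclear phosphatase that acts on p38, JNK and ERK and is a classic immediate early gene. It had 846 counts and 25.2 TPM in replicate 1, and 341 counts and 10.2 TPM in replicate 2. The log2 difference was −1.45 (counting SE 0.0925), or 2.72-fold lower, and 0.227% of all genes that passed the minimum lay as low. Dusp1 (ENSMUSG00000024190.7) lies on the minus strand of chromosome 17 from 26505590 to 26562128 (mm10) and overlaps the coding gene Ergic1 on the opposite strand over 640 bp. Ergic1 had 3068 and 3198 counts. The library kit keeps strand, but whether the counting used it is not known, so reads in the overlap may be shared.

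Dusp4 encodes a further nuclear phosphatase that is induced through ERK. Its counts were 511 and 172, and its levels 10.7 and 3.46 TPM. Its log2 difference of −1.70 (counting SE 0.127), or 3.25-fold lower, was the largest in the family. Dusp5, whose nuclear product is specific to ERK, had 268 and 166 counts and 6.22 and 3.71 TPM, a log2 difference of −0.82 (counting SE 0.142). Dusp6 encodes the cytoplasmic phosphatase that is specific to ERK and is widely used as a readout of FGF signalling. It was the most abundant of the 4 phosphatase genes, with 1793 and 862 counts and 49.1 and 21.8 TPM. Its log2 difference was −1.19 (counting SE 0.0598), or 2.29-fold lower. Dusp4 (ENSMUSG00000031530.6) lies on chromosome 8 from 34807297 to 34819894, Dusp5 (ENSMUSG00000034765.6) on chromosome 19 from 53529109 to 53542431 and Dusp6 (ENSMUSG00000019960.8) on chromosome 10 from 99263231 to 99267489, all on the plus strand. The antisense gene AC137853.2 overlaps Dusp5 over 547 bp and had 9 and 8 counts.

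The start regions of 3 of these phosphatase genes are shown because all were lower in replicate 2 and their motif matches differ, with none in Dusp6. Each window runs from 250 bases before to 50 bases after the RefSeq start (GRCm38.p6, 300 bases, given 5′ to 3′ on the gene's strand), and capitals mark matches to a searched motif.
Dusp1, chr17:26508423-26508722, minus strand: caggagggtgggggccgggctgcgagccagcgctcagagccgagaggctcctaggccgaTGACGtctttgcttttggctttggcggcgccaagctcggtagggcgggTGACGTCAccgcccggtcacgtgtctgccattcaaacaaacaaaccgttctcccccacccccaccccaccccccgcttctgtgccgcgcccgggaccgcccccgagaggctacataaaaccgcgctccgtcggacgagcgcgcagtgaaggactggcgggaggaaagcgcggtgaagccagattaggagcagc
Dusp5, chr19:53528895-53529194, plus strand: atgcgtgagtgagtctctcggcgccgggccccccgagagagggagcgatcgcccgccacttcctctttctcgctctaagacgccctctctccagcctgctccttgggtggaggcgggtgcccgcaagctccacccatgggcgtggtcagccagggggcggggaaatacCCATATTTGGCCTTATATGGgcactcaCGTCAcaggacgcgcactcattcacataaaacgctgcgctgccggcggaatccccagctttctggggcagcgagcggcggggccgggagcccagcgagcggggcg
Dusp6, chr10:99262981-99263280, plus strand: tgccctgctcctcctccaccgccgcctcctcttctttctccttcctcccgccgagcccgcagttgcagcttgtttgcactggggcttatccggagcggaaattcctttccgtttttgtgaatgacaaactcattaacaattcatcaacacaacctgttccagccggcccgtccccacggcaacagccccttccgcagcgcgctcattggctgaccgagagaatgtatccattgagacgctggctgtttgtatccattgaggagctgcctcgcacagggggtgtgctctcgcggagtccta

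Searched on both strands were the cyclic AMP response element TGACGTCA (the binding sequence of CREB), its first 5 bases TGACG alone, the AP-1 site TGANTCA, the ETS site CCGGAAGT and the CArG box of serum response factor. TGACG is part of TGACGTCA, so every full element is also counted as its shorter form. The Dusp1 window held 1 full element, from −143 to −136 bases relative to the start, which was found in 1.79% of 32851 promoter windows of the same length. A separate TGACG lay from −191 to −187. The Dusp5 window held 2 CArG boxes side by side, from −82 to −73 and from −72 to −63, against 1.63% of windows with any, and a TGACG on the opposite strand from −55 to −51. The Dusp6 window held no match to any of the 5 motifs. Windows of 8 of the 10 members were searched, and those of Dusp4 and Spry4 were not. Beyond Dusp1 and Dusp5, only the window of Spred2 held a match. This was a TGACG on the opposite strand from −51 to −47, a motif found in 20.8% of windows. None of the searched member windows held the AP-1 or the ETS site, which 7.81% and 3.89% of windows held. A match is not evidence of binding, and a missing match concerns these letters in these windows alone.

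Sprouty genes did not move as a block. Their products are membrane-associated inhibitors that receptor signalling induces. Spry2 had 1992 and 1378 counts and 55.3 and 36.8 TPM, a log2 difference of −0.67 (counting SE 0.0505), or 1.59-fold lower in replicate 2. Spry4 had 622 and 259 counts and 7.36 and 2.95 TPM, a log2 difference of −1.40 (counting SE 0.107), or 2.63-fold lower. Spry1 had 177 and 181 counts and 4.05 and 3.92 TPM. Its log2 difference of −0.10 had a 95% counting interval from −0.40 to 0.19, and it was 0.17 with spike-in scaling, so its direction is not settled. That interval lies wholly above those of Spry2, from −0.77 to −0.57, and Spry4, from −1.61 to −1.19. These intervals cover read sampling only, so they do not show how far such gaps vary between animals. In replicate 2, Dusp4 and Dusp5 had counts as low as Spry1 had.

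Spry1 (ENSMUSG00000037211.12) lies on chromosome 3 from 37639947 to 37644598 on the plus strand. Spry2 (ENSMUSG00000022114.5) lies on chromosome 14 from 105891947 to 105896819 and Spry4 (ENSMUSG00000024427.7) on chromosome 18 from 38586247 to 38601415, both on the minus strand. The entry Gm42922 overlaps Spry1 on the opposite strand over 710 bp and had 3 and 10 counts.

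Spred1 and Spred2 were among the more abundant members. Spred1, the gene mutated in Legius syndrome in humans, had 9120 and 6098 counts and 87.3 and 56.4 TPM. Its log2 difference of −0.72 had the smallest counting SE of the family, 0.0239, and equals 1.64-fold lower. Spred2 had 3217 and 2411 counts and 48.7 and 33.9 TPM, with a log2 difference of −0.55 (counting SE 0.0389). Etv5, a PEA3-group ETS factor induced by FGF signalling and expressed by astrocytes and their precursors, had 3227 and 2261 counts and 45.9 and 31.0 TPM, with a log2 difference of −0.65 (counting SE 0.0396). In these 3 genes replicate 2 held 60.8%, 68.2% and 63.7% of the scaled counts of replicate 1, against 30.7% for Dusp4 and 36.7% for Dusp1. Spred1 (ENSMUSG00000027351.14) lies on chromosome 2 from 117121374 to 117182279 and Spred2 (ENSMUSG00000045671.17) on chromosome 11 from 19924375 to 20024026, both on the plus strand, and Etv5 (ENSMUSG00000013089.15) on chromosome 16 from 22381309 to 22439719 on the minus strand.

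**Figure D2:**
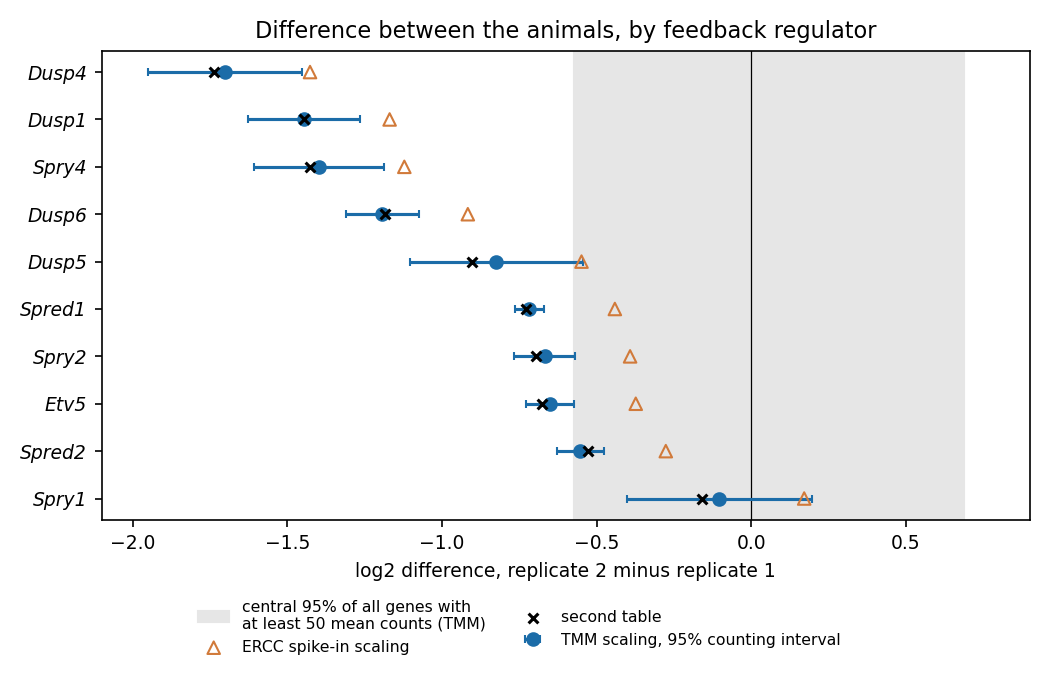
Log2 difference between the animals for each gene with TMM scaling (circles, with 95% counting intervals), with ERCC spike-in scaling (triangles) and from the second table (crosses), over a grey band for the central 95% of all genes that passed the count minimum. The band is drawn with TMM scaling alone, so the triangles cannot be read against it. Dusp4 lies farthest out at −1.70, and only Spred2 and Spry1 fall inside the band with TMM scaling.

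Scaling on the spike-ins moved every gene upward, and the median over all genes became 0.25. The members then had a median of −0.49, with 9 of 10 below 0. Lower by more than 1.5-fold remained 4 of 10 (Dusp4, Dusp1, Spry4 and Dusp6), against 127 of the 14122 genes. Each scaling applies 1 factor per library and so shifts all genes alike. The distance of the members' median from that of all genes, −0.75, is therefore the same with either scaling by construction. With spike-in scaling 88.1% of all genes were higher in replicate 2, against 45.6% with TMM scaling. From the counts of the second table the members' median was −0.82 and each member kept its sign. In that table all 10 members differed less in TPM than in scaled counts, and the gap was widest for Etv5, with a log2 ratio of −0.25 in TPM and a log2 difference of −0.68 in counts.

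Most members kept the same leading transcript in both animals. Dusp4, Dusp5, Spry2 and Spry4 have a single annotated transcript. In the first table the leading transcript was the same in both animals for all 10 members, and in the second for 9. Spred1-201 took 96.5% and 96.0% of Spred1 TPM in the first table. Spred2-202 took 62.9% and 67.6%, and Spred2-201, also coding, 31.7% and 29.6%. The short coding entry Spred2-203 had 5.36% and 2.79% in the first table but 22.3% and 23.3% in the second.

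Dusp6 was divided between the coding transcript Dusp6-201, with 57.5% and 63.6% of its TPM, and Dusp6-203, a processed transcript without an annotated reading frame, with 30.7% and 24.6%. Both were lower in replicate 2, with 28.3 and 13.8 TPM for Dusp6-201 and 15.1 and 5.36 TPM for Dusp6-203. In the second table their shares were 70.2% and 73.9%, and 25.8% and 18.3%. For Dusp1 the coding transcript Dusp1-202 had 21.97 and 8.38 TPM. The retained-intron entry Dusp1-203 was lower in replicate 2 too, at 1.69 and 0.59 TPM on 67.97 and 24.79 counts. A further retained-intron entry, Dusp1-204, stood at 1.24 and 1.27 TPM, on 16.6 and 17.7 counts. The share of Dusp1-204 was 4.91% and 12.4%, and 5.45% and 13.2% in the second table. That table alone gave 24.5% of Dusp1 TPM to Dusp1-206 in replicate 2 and 0 counts in replicate 1.

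The transcripts of Spry1 and Etv5 depended on the table. Spry1-201 took 63.2% and 51.9% of Spry1 TPM in the first table, but 71.9% and 15.0% in the second, where Spry1-203 led in replicate 2 with 60.9%. All 3 Spry1 transcripts together rest on 177 and 181 counts. Etv5-201 took 100% and 95.9% of Etv5 TPM in the first table and 83.3% and 61.9% in the second, where Etv5-204, of 489 nt, had 14.1% and 14.2%, and Etv5-205, annotated as a target of nonsense-mediated decay, had 0 and 18.7%.

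**Figure D3:**
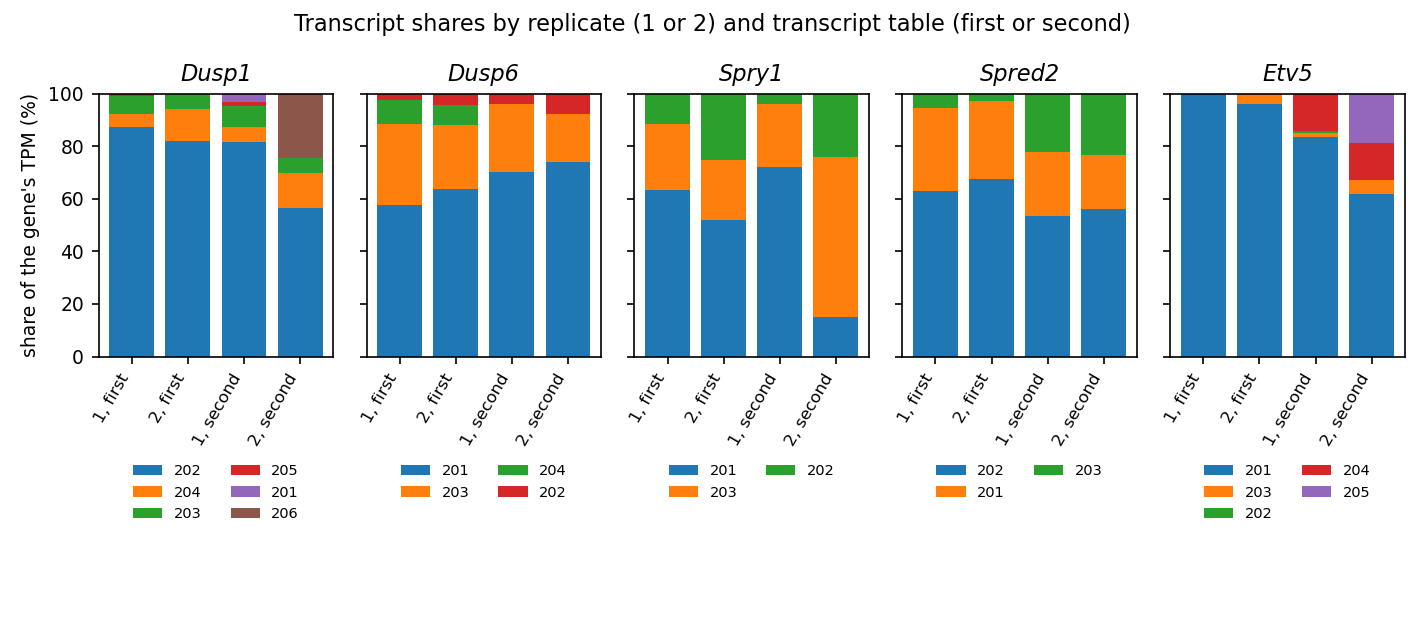
Share of each gene's TPM by transcript for the 5 members with more than 1 transcript at 10% or more, in replicates 1 and 2 and in both transcript tables. The bars of Dusp6 and Spred2 are alike between animals within a table, and those of Spry1 differ most, with Spry1-201 at 71.9% and 15.0% in the second table.

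In 7 of 10 members the span of the leading transcript was below the median of coding genes that passed the count minimum. A median by definition has as many coding genes below it as above, so this count is a description only. The median span of the leading transcript was 12961 bp, from 2930 bp in Dusp1 to 99652 bp in Spred2, against 22947 bp over 12819 coding genes. Leading transcripts had a median of 4 exons, against 8. The members lie on 10 different chromosomes. The pentamer ATTTA, the core of AU-rich elements that mark short-lived RNAs, was counted on the transcript strand of the 3′ UTR of each leading transcript. It occurred at a median of 1.94 per kb in the members and 1.24 per kb over 11882 coding genes. Above the latter value lay 8 of 10 members, and as a median it likewise splits the coding genes evenly. Dusp1 had the highest density at 5.80 per kb (4 in 690 bases), which 4.50% of coding genes reached, and Dusp6 the lowest at 0.841 per kb.

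The rest of the pathway was read from lists chosen with earlier results of these data known. They held 122 other genes, of which 111 passed the count minimum. With TMM scaling 72 of these were lower and 8 were lower by more than 1.5-fold, against 54.4% and 2.34% of all 14122 genes. None was higher by more than 1.5-fold. At such a low share a short list can easily hold no gene past that fold, so its absence from a list below is a description only. With spike-in scaling 21 were lower, 5 were lower by more than 1.5-fold (Fos, Egr1, Junb, Ier2 and Ccnd1) and 5 were higher by more than 1.5-fold (Mapk7, Erf, Il17rd, Map2k5 and Nrg3). Of all 14122 genes, 88.1% were higher and 127 were lower by more than 1.5-fold with that scaling. How many of all genes were higher by more than 1.5-fold with it was not counted. Spike-in scaling moved the median of all genes to 0.25, so the 5 higher pathway genes are a description only. The median log2 difference of the 111 other pathway genes was −0.07 with TMM scaling. The values that follow use TMM scaling unless another is named. The 8 genes lower past 1.5-fold with TMM were 2 ligand genes and 6 ERK-responsive genes, and with spike-in scaling the ligand genes Bdnf (−0.45) and Hbegf (−0.36) were no longer among them. With spike-in scaling the list medians below stayed under 0 for the ERK-responsive genes (−0.66) and for Spred3, Etv1 and Etv4 (−0.07), and all others lay above 0.

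Of 13 measured ligand genes, 2 were lower by more than 1.5-fold. Bdnf, the main activity-regulated neurotrophin of cortex, had 12.5 and 8.00 TPM (log2 −0.72, counting SE 0.0763). Hbegf, a ligand of the EGF receptor, had 6.09 and 3.66 TPM (log2 −0.63, counting SE 0.149). Nrg3, a neuregulin that binds ErbB4, had the highest level among the ligands and was not lower, at 22.6 and 31.9 TPM. Fgf10, an FGF that binds Fgfr2, had 159 and 121 counts (log2 −0.53, counting SE 0.174). Over all 13 the median log2 difference was −0.07.

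In scaled counts no receptor gene passed 1.5-fold among 15 measured, with a median log2 difference of −0.07. Ntrk2, the BDNF receptor gene, stood at 176 and 175 TPM, and Fgfr1 differed most (log2 −0.41, counting SE 0.0526). In TPM, at 36.65 and 20.97, Fgfr1 was past that fold, with a log2 ratio of −0.81, so the measures differ for it. The 12 adapter genes had a median of −0.04, with Grb2, which links receptors to the Ras activator Sos, at 104 and 99.8 TPM. Shc3, a neuronal adapter gene, differed most at −0.46. Ras and exchange factor genes had a median of −0.11 over 8, led by Rasgrp1 at 152 and 174 TPM.

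Of 11 Raf, MEK and ERK genes, 4 were lower, 7 were higher and none passed 1.5-fold in counts scaled with TMM. Map2k1, which encodes the kinase MEK1, had 135 and 133 TPM. The largest difference was that of Mapk7, which encodes the large kinase ERK5, at 5.70 and 9.24 TPM (log2 0.52, counting SE 0.106, and 0.80 with spike-in scaling). Map2k5, which encodes its activating kinase MEK5, was at 0.32. JNK and p38 genes had a median of −0.07 over 10, with Mapk10, the neuronal JNK3 gene, at 252 and 244 TPM. Kinases and factors that ERK acts on had a median of −0.09 over 13, with Srf at −0.39 and Creb1 at −0.32, and Rps6ka2, which encodes a ribosomal S6 kinase, at −0.48.

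Relatives of these genes outside the family were mixed. Among the remaining MAP kinase phosphatase genes, Dusp8 had 66.3 and 71.3 TPM, Dusp7, whose product also acts on ERK, 45.3 and 48.9 TPM, Dusp16 5.54 and 7.74 TPM and Dusp10 3.66 and 3.23 TPM. Their log2 differences lay between −0.26 and 0.06, so none of the 4 measured was beyond 1.5-fold. Dusp2 and Dusp9 were under the count minimum, with 15 and 31 counts and with 14 and 10 counts. Spred3, the last Spred gene, had 21.1 and 14.6 TPM and a log2 difference of −0.58 (counting SE 0.0627), just short of 1.5-fold and larger than that of the member Spred2. The Etv5 relatives Etv4 and Etv1 had −0.34 (counting SE 0.164) and −0.06, and Etv4 had a log2 ratio of −0.62 in TPM. Spry3 is not analysed here.

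Further brakes on the relay had a median of −0.04 over 13 genes and none passed 1.5-fold with TMM scaling. Pebp1, which encodes a Raf inhibitor, was the most abundant at 311 TPM in both animals. Errfi1, an ERK-induced inhibitor of the EGF receptor, had 13.66 and 12.01 TPM (log2 −0.24, counting SE 0.0792). The receptor-level inhibitor gene Il17rd was at 0.33 and the ETS repressor gene Erf, which ERK inactivates, at 0.34.

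ERK-responsive genes outside the family had the lowest median of the pathway lists, −0.94 over 9 measured genes, of which 6 were lower by more than 1.5-fold. As the list was chosen with earlier results of these data known, its rank is a description only. Fos had 643 and 84 counts (log2 −3.06, counting SE 0.167), Egr1 5208 and 2046 counts (log2 −1.48, counting SE 0.0376) and Junb 1462 and 600 counts (log2 −1.42, counting SE 0.0699). The others past 1.5-fold were Ier2, Ccnd1 and Fosl2, at −1.10, −0.94 and −0.79. The ephrin receptor gene Epha4 had 67.2 and 74.8 TPM and Ier3 8.34 and 8.18 TPM, so the list was not lower throughout.

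**Figure D4:**
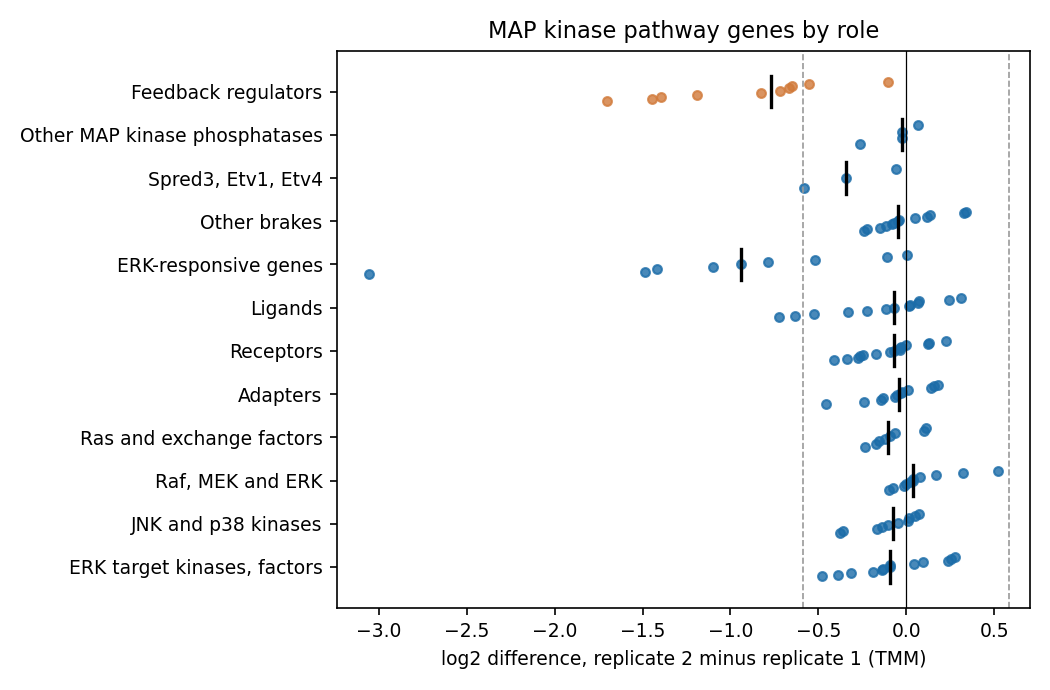
Log2 difference between the animals for every pathway gene that passed the count minimum, grouped by role, with a black bar at each list's median and dashed lines at 1.5-fold. The feedback regulators (median −0.77) and the ERK-responsive genes (median −0.94) lie to the left, and the Raf, MEK and ERK genes all lie within 1.5-fold with TMM scaling. All lists were chosen with earlier results of these data known.

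Markers of cell classes were read in the same libraries, 5 genes a class. In bulk tissue, fewer cells of a type and less RNA per cell cannot be told apart. Median log2 differences were 0.03 for excitatory neurons, −0.10 for inhibitory neurons, −0.13 for astrocytes, 0.10 for oligodendrocytes, −0.08 for their precursors, −0.04 for microglia, 0.06 for endothelium, 0.11 for striatal neurons and, over 4 measured, 0.23 for mural cells. Astrocyte markers summed to 368 and 360 TPM and excitatory markers to 1609 and 1769 TPM. Choroid plexus markers had a median of −1.18 over 2 measured and summed to 178 and 60.3 TPM, mostly Ttr at 172 and 55.7 TPM, with Folr1 at 35 and 3 counts and Kl at 266 and 185. Otx2 went the other way at 21 and 51 counts and Aqp1 stood at 32 and 31. In 3 of its 5 markers choroid plexus was thus lower in replicate 2, as the family was, and its part in the result was not tested. Markers of the cortex in the label were present, with Slc17a7 of excitatory neurons at 452 and 487 TPM. Striatal markers summed to 610 and 681 TPM, so RNA of these genes was present too.

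The libraries held 28327434 and 30234441 estimated counts, and the smallest count of a member was 166. Over 20162 genes the libraries differed beyond sampling noise, with a chi-square of 13.2 for each degree of freedom, and both were kept as samples of their own. The biological coefficient of variation was 13.9%. The authors' TPM lay inside the model's own interval for 9 of 10 members in each animal and above it for Spred1.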

How the data were processed

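Total RNA from 2 left cortices was sequenced, 1 library per animal, and replicate numbers come from the labels. Per the deposited readme text, reads were processed on mm10 with GENCODE M21. The sources used here name no aligner, quantifier or version. Expected counts and TPM in the first tables were deposited with the column layout RSEM writes, and the second transcript tables with that of kallisto. The percent of a gene's TPM per transcript was deposited by the authors. The model's TPM bounds are deposited scores of unstated level.

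Expected counts were rounded, scaled with TMM factors (edgeR 4.0.16, R 4.3.3) and turned into log2 CPM with a prior count of 1. Log2 differences are given for genes averaging 50 counts or more. The coefficient of variation is from edgeR's common dispersion over 18257 genes. Steps were tested on simulated data. Counting intervals (95%) cover read sampling only. Spike-ins took 0.265% and 0.225% of counts. With 1 group of 2 animals no test across animals was possible. The labels give both animals 1 donor entry, so the spread between them may be partly technical.

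Members and lists were chosen with earlier results of these data known. Genes named outside the family are, per list, the highest by level and up to 3 with the largest difference, except 1 gene that is not reported here; Ier2, Ccnd1, Fosl2, Ier3, Map2k1, Dusp2 and Dusp9 were named after their values were seen. Named transcripts have a mean share of at least 10% in either table. Dusp1-203, Dusp1-204 and Etv5-205 were added after their values were seen. Promoter windows are from RefSeq (GRCm38.p6) by symbol. Alternatives were DESeq2 1.42.0 size factors, totals, spike-ins, the second table, a prior count of 5, other count minimums and each animal alone.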

Additional observations from a re-analysis of the deposited data

How the results depend on the processing

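With spike-in scaling the members' median log2 difference was −0.49 (−0.77 with TMM), 4 members instead of 8 were lower by more than 1.5-fold, and the median of the other pathway genes was 0.21 (−0.07 with TMM). The median level over members was 26.6 TPM, and 16.005 to 35.5 TPM with either animal alone. Over all genes, 331 lower by more than 1.5-fold became 127 with spike-in scaling, 885 with a minimum of 10 counts and 3702 with none, and 89 lower by more than 2-fold became 47, 298 and 2551. DESeq2 size factors, totals and the second table left 8 and 4 members past these folds. With spike-in scaling Spry1 had the opposite sign (0.17), and no other member changed sign under any alternative run. No paired analysis was possible because there is 1 group. Depth limits Spry1 most, with 177 and 181 counts.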
